A study of Mus musculus with 49 samples.

Results

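Oocytes store messenger RNAs for the last steps of their growth, for maturation and for fertilisation, and most of these messages are destroyed in the embryo within the first divisions. Here 10 such genes were followed in single late 2-cell mouse embryos: Gdf9 and Bmp15, whose products are signals of the oocyte to the follicle cells, Zp1, Zp2 and Zp3 of the egg coat, the kinase gene Mos, the RNA-binding protein genes Zar1 and Zar1l, and the oocyte genes Oosp1 and Oas1d. They were picked by symbol, and each matched 1 of the 54838 genes counted (Ensembl identifiers with these symbols in GENCODE). All 10 passed the filter on low counts in each experiment. The question was whether their remnants stand higher when transcription of the zygotic genome is impaired, and how far the answer depends on scaling by spike-in RNA or by the bulk of the transcripts.

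Clearance of maternal RNA is known to run in an early and a later wave. In the early wave, factors already in the egg shorten the poly(A) tail, the adaptor Btg4 bringing the CCR4-NOT deadenylase to the message. In the later wave, uridylation of the tail and factors made by the embryo itself take part, so that blocking zygotic transcription is known to preserve part of the maternal pool.

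All embryos were F1(C57BL/6JxCBA/H) and were injected as zygotes with an antibody and 4 h later with mRNA for mCherry-Trim21, a ubiquitin ligase that degrades the protein the antibody binds (Trim-Away). At 48 h after hCG each was lysed with ERCC RNA, a set of artificial spike-in transcripts, already present. By protocol the CONTROL embryos differed in the antibody injected, an IgG. The level of mCherry-Trim21 reached also varied between embryos and is given below. After the depth filter, 9 embryos had received the antibody against TBP, the TATA-binding protein of the general transcription machinery (TBP LOF), and 9 the mouse IgG. A further 16 had received the antibody against FOXJ3, a forkhead factor (FOXJ3 LOF), and 13 the rabbit IgG. The FOXJ3 embryos came in 2 library batches, whereas which TBP embryo came from which collection was not analysed here. Depletion acted on protein, so that the mRNAs of the targeted genes do not check the labels: Tbp mRNA was lower upon TBP LOF (log2 fold change −2.14, SE 0.37), and Foxj3 mRNA did not pass the test upon FOXJ3 LOF (0.28, SE 0.13).

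Counted reads per embryo lay between 1103569 and 5434808. ERCC reads took 2.67% to 6.12% of them in the TBP LOF embryos and 2.22% to 3.25% in the mouse IgG embryos, and mitochondrial reads 4.69% to 9.85% and 3.00% to 8.51%. The 10 markers of the 2-cell stage were detected in each experiment. Of 18 markers of cumulus and granulosa cells, 4 (Fshr, Inhba, Inhbb and Ereg) had no read in any embryo kept, and the list summed to between 13.0 and 40.01 CPM (counts-per-million units, relative to the reads on genes and TEs of the embryo) in TBP LOF and between 19.4 and 73.9 in mouse IgG embryos. Of 6 sperm markers, 2 (Tnp2 and Smcp) had no read, and their sum was at most 8.18 CPM in any embryo. The 7 genes of blastocyst lineages summed to between 10.2 and 176 CPM. The contribution of other cells to the values below was not tested.

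All 10 genes still had reads in every group. Mos and Zar1l were sparse, with 0 to 17 and 0 to 16 reads per TBP LOF embryo, whereas Oosp1 had 1792 to 10631. Of the reads on the 10 genes, Oosp1 took between 40.3% and 82.8% in single embryos. These are shares of reads from 5′ ends, and no ranking of molecules between genes is drawn from them.

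The summed reads of the 10 genes differed between the 2 scales. In CPM, the sum was 2529 ± 437 (SD, n = 9) in TBP LOF and 1507 ± 484 (SD, n = 9) in mouse IgG embryos. The lowest TBP LOF embryo had 1918 and the highest mouse IgG embryo 2377, so the groups overlapped. Per 1000 ERCC reads, the sum was 60.2 ± 18.9 upon TBP LOF and 54.7 ± 21.0 in the mouse IgG embryos, a difference smaller than the SD of either group. Without Oosp1 the corresponding means were 747 and 426 CPM, and 18.4 and 15.2 per 1000 ERCC reads. Upon FOXJ3 LOF the sum was 1752 ± 557 (SD, n = 16) CPM against 2202 ± 916 (SD, n = 13) with rabbit IgG, and 57.6 ± 21.5 against 65.7 ± 42.8 per 1000 ERCC reads.

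**Figure D1:**
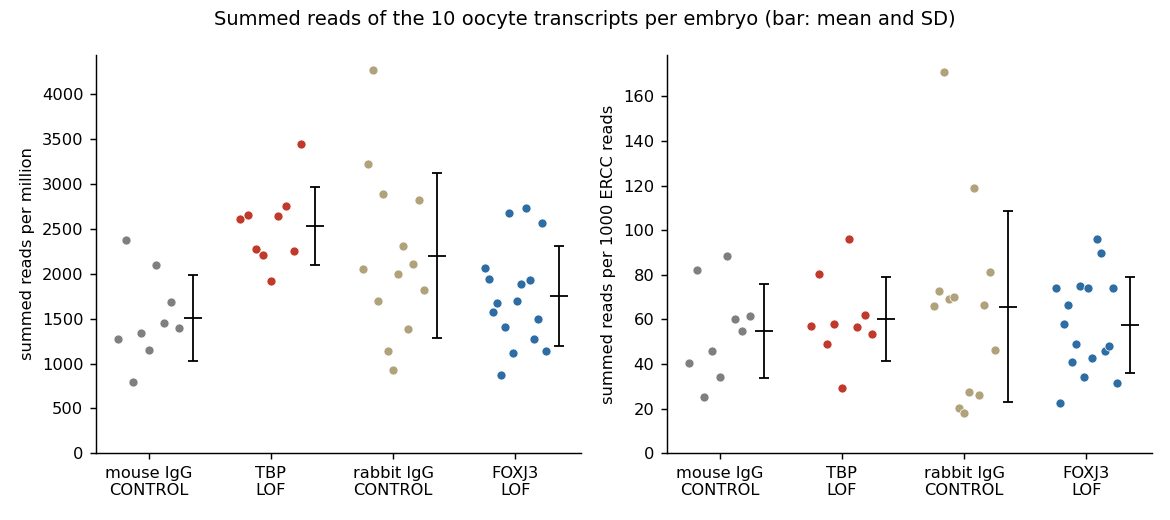
Summed reads of the 10 oocyte transcripts in each embryo, in CPM (left) and per 1000 ERCC reads (right), both axes linear from 0. Each point is an embryo, and the black mark gives the group mean with its SD: the TBP LOF mean of 2529 lies above the mouse IgG mean of 1507 on the left, whereas 60.2 and 54.7 lie within an SD of each other on the right.

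With ERCC scaling, which sets the reads of each embryo against a constant amount of added RNA, 2 of the 10 genes fell upon TBP LOF and 0 rose, with 3 of 10 at an unadjusted p under 0.05. DESeq2 gave the same counts. The 2 were Zp3, which encodes a structural glycoprotein of the zona pellucida, and Zar1l, whose product is a zinc-finger protein close to ZAR1. Among all features tested, genes and transposable element (TE) families together, 29.7% were lower and 1.34% were higher by the same rule, an adjusted p under 0.05 in the quasi-likelihood test of edgeR with Benjamini-Hochberg adjustment. The median log2 fold change of the 10 genes was 0.05, against −0.70 over all genes tested. Of the 10, 6 had a positive estimate, as did 27.01% of all genes tested.

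Zp3 showed the clearest change. Its ERCC-scaled counts (reads divided by the spike-in size factor of the embryo) ran from 6.04 over a median of 29.5 to 57.4 in the TBP LOF embryos. In the mouse IgG embryos they ran from 63.7 over 94.0 to 148. Every TBP LOF embryo thus lay below every mouse IgG embryo, with means of 28.6 ± 15.1 and 101.3 ± 30.9 (SD, n = 9 each). How many of all features separate in this way was not counted, so the separation is not shown to be particular to Zp3. The fold change was −1.83 on the log2 scale (SE 0.34, edgeR adjusted p = 2.29e-05), which is 3.56-fold lower.

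Zar1l followed with fewer reads. Its ERCC-scaled counts ran from 0 over 4.59 to 25.4 upon TBP LOF and from 15.7 over 21.6 to 35.6 with mouse IgG. Of the 9 TBP LOF embryos, 7 lay below all mouse IgG embryos, and embryos 2 and 8 lay within their range. The fold change was −1.76 (SE 0.54, edgeR adjusted p = 0.0084). In the TBP LOF embryo without a read, a count of 0 allows up to 3 reads, or 1.36 CPM, and such limits cover counting error only. The pseudogene Gm15933 lies inside Zar1l on the same strand, so reads of the 2 could be shared out between them even if reads were counted by strand. Gm15933 itself was not among the features tested in the TBP or the FOXJ3 fit.

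The sequences at the start of these genes are shown because TBP is the subunit that binds the TATA box. RefSeq gave promoters for 5 of the 10 genes (GRCm38.p6, Bmp15, Zp3, Zar1, Zar1l and Oosp1). Below are the 100 bases before the RefSeq start of the 2 genes that fell and, for comparison, of Bmp15, 5′ to 3′ on the gene's strand, with TATAA in capitals. They lie at chr5:135980005-135980104 (plus strand), chr5:150518160-150518259 (minus) and chrX:6320725-6320824 (minus).
Zp3: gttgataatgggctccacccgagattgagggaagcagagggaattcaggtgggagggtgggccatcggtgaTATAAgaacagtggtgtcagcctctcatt
Zar1l: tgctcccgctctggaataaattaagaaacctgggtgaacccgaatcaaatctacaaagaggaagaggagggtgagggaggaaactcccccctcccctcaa
Bmp15: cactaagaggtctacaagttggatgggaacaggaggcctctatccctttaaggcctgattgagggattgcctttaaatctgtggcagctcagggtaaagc

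Of these 5 promoters, that of Zp3 alone held TATAA in the last 50 bases before the RefSeq start, with its first base 29 bases before it. The other strand held none. Over all 32851 RefSeq promoters, 4.92% held TATAA there on the gene's strand and 2.80% on the other. Zar1l fell without this motif in the window. Only the exact letters TATAA were searched, so other AT-rich letters, such as tttaaa in the printed Bmp15 window, were not counted. The E-box letters CANNTG, the same on both strands, were found in the last 100 bases of Zp3, Zar1 and Oosp1 and not of Zar1l and Bmp15, against 34.5% of all promoters. The GENCODE start of Zar1 lies 170 bases and that of Oosp1 99 bases upstream of the RefSeq start, so the searched window of Zar1 lies wholly, and that of Oosp1 but for its outermost base, inside the GENCODE gene. For these 2 genes the search does not describe sequence upstream of the GENCODE start, and the windows are not printed. In the printed windows of Zp3 and Zar1l the GENCODE start lies 6 and 5 bases upstream of the RefSeq start. On the same count that of Bmp15 stands at −3, downstream of the RefSeq start.

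At the other end of the transcript, Zp3 and Zar1l shared a feature that the remaining 8 genes lacked, and which was looked up after their values were seen. The polyadenylation signal and the stop codon overlapped: the stop codon TAA is part of AATAAA, and the annotated 3′UTR (GENCODE M21) was 13 bases long in Zp3 and 14 in Zar1l. The next shortest was Zp1 with 34 bases, the longest was Bmp15 with 1523, and the median of 21831 protein-coding genes was 833. A 3′UTR under 20 bases was annotated in 4.8% of protein-coding genes, and 0.239% had the stop codon inside the signal by the same search. Whether other genes with this feature fell upon TBP LOF was not tested. Shown, 5′ to 3′, are 30 bases around the signal of the 2 genes that fell and of Gdf9, with AATAAA and, in Gdf9, the cytoplasmic polyadenylation element TTTTAT in capitals. They lie at chr5:135988591-135988620 (plus strand), chr5:150507060-150507089 (minus) and chr11:53437866-53437895 (plus).
Zp3: cttgtatcccttccgcAATAAAagaagaaa
Zar1l: gtcttcttcagcttaaAATAAAccttgtga
Gdf9: TTTTATgtgacggaagAATAAActgttgat

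Cytoplasmic polyadenylation elements are known to control tail length in oocytes. In the last 100 bases of the annotated transcript, TTTTAT or TTTTAAT on the transcript strand occurred in Gdf9 alone among the 10 genes, against 16.6% of protein-coding genes. Other spellings of the element were not searched, so the other genes are not shown to lack it. A signal AATAAA or ATTAAA within 40 bases of the end was present in 9 of 10, all but Oosp1, against 70.1% of protein-coding genes. These matches describe the annotated ends, and the ends used in these embryos were not read.

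The 8 remaining genes did not pass the test with ERCC scaling. Bmp15, a growth factor of the TGF-beta family encoded on the X chromosome, came nearest. Its ERCC-scaled counts ran from 317 over 540.0 to 1426 upon TBP LOF and from 254 over 434 to 612 with mouse IgG. TBP LOF embryos 1, 2, 6 and 8 exceeded all mouse IgG embryos, and the other 5 lay within their range. The estimate was 0.69 (SE 0.30, edgeR adjusted p = 0.0753). Without TBP LOF embryo 7, 9 or 11 it passed the test, with estimates of 0.78, 0.76 and 0.77, whereas without embryo 8 the estimate was 0.496, and over all 18 fits that leave out 1 embryo the adjusted p ran from 0.0397 to 0.207. It also passed with the stricter filter of edgeR (filterByExpr, edgeR adjusted p = 0.0492) and with all 19 embryos, the shallow one included (edgeR adjusted p = 0.0422). With embryo number as a replicate block it passed too (0.74, edgeR adjusted p = 0.0392), although nothing in the labels makes these numbers pairs.

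Gdf9, the partner of Bmp15 in the same family, had 84.2 to 309.6 ERCC-scaled counts (median 185) upon TBP LOF and 99.3 to 243 (median 151) with mouse IgG. The groups overlapped widely, with an estimate of 0.09 (SE 0.29). For the egg-coat genes Zp1 and Zp2 the estimates were 0.04 (SE 0.38) and 0.42 (SE 0.34). Zp2 had 24.1 to 68.8 ERCC-scaled counts (median 45.9) upon TBP LOF and 10.8 to 58.5 (median 33.4) with mouse IgG, and 2 TBP LOF embryos exceeded all mouse IgG embryos. All 3 egg-coat genes encode glycoproteins of one matrix, and their estimates spanned −1.83 to 0.42.

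Zar1, a maternal-effect gene whose product binds stored mRNA, had group medians of 26.3 and 25.5 ERCC-scaled counts upon TBP LOF and with mouse IgG, and an estimate of −0.0027 (SE 0.36). Whether it differed from its paralogue Zar1l was not tested. The estimate for Oosp1, a secreted protein of the oocyte, was 0.07 (SE 0.30). Its ERCC-scaled counts ran from 1328 over 2567 to 3873 and from 1042 over 2236 to 4256, with every TBP LOF embryo inside the mouse IgG range. For Oas1d, an oocyte member of the oligoadenylate synthetase family, the estimate was −0.18 (SE 0.29), with 4 TBP LOF embryos below all mouse IgG embryos and 0 above them. Mos, whose kinase holds the mature oocyte in meiotic arrest, had an estimate of 0.08 with a 95% interval from −1.19 to 1.35, which its few reads could not narrow. The upper bounds of the 95% intervals (estimate and SE, normal) of the 8 genes ran from 0.40 for Oas1d to 1.35 for Mos, and 5 of them lay under 1 on the log2 scale.

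**Figure D2:**
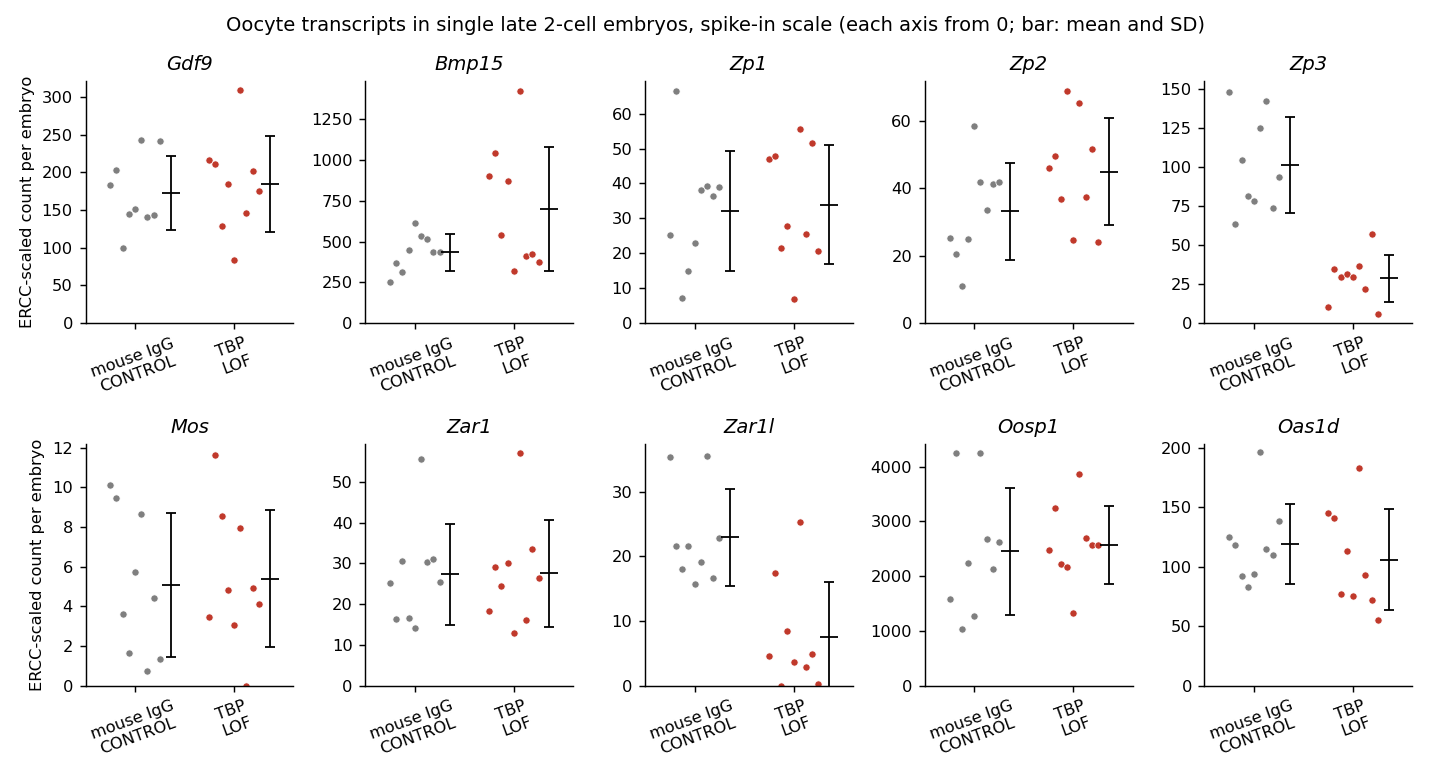
ERCC-scaled counts of each gene in the 9 mouse IgG and the 9 TBP LOF embryos, 1 panel per gene, linear axes from 0. Points are embryos and the black mark is the mean with its SD. For Zp3 the groups do not overlap (highest TBP LOF embryo 57.4, lowest mouse IgG embryo 63.7), for Zar1l 7 TBP LOF embryos lie below all mouse IgG embryos, and the other genes overlap. The lower SD bar of Zar1l in TBP LOF ends at the axis, since the SD (8.51) exceeds the mean (7.52).

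With TMM scaling, which centres the bulk of the transcripts, 6 of the 10 genes rose upon TBP LOF, 1 fell, and 3 did not pass the test. Among all features 12.9% were higher and 12.7% lower. This scaling moved the median of all genes from −0.70 to 0.13 and the median of the 10 genes to 0.88. TMM takes most features to be unchanged, whereas with ERCC scaling 29.7% were lower and 1.34% higher. The paper scaled the TBP embryos to ERCC because it found wide changes in the transcriptome. With TMM scaling, rose and fell are therefore meant relative to the bulk of the transcripts, not as RNA per embryo. With ERCC scaling 0 of the 10 genes rose. Higher were Bmp15 (1.46, SE 0.22, edgeR adjusted p = 1.46e-05), Zp2 (1.24, SE 0.26), Oosp1 (1.01, SE 0.26), Gdf9 (0.99, SE 0.22), Zar1 (0.88, SE 0.29) and Oas1d (0.67, SE 0.21). Of these, Zar1 and Oas1d had estimates below 0 with ERCC scaling (−0.0027 and −0.18). Zp3 was lower on this scale too (−0.9998, SE 0.27, edgeR adjusted p = 0.0057). Zp1 (0.83, SE 0.32), Mos (0.88, SE 0.59) and Zar1l (−1.09, SE 0.49, edgeR adjusted p = 0.0973) did not pass. Single embryos decided some of these calls: Zar1 did not pass without TBP LOF embryo 11 (0.69), whereas Zar1l passed without TBP LOF embryo 2 (−1.36) or 8 (−1.45), and Zp1 without TBP LOF embryo 5, 6 or 7 or mouse IgG embryo 2 or 9 (0.88 to 1.08). Zp1 also passed with DESeq2 and its own size factors (0.88), with no filter (0.83), with filterByExpr (0.93) and with all 19 embryos (0.88), each of which gave 7 genes higher. In that order these fits called 2847 of 19356, 3089 of 29139, 2148 of 8124 and 2719 of 19465 of all features higher. With embryo number as a replicate block Zar1 (0.79) and Oas1d (0.55) did not pass, and 1806 of 19356 features were higher.

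The shares of reads in single embryos show the same contrast. Bmp15 took 273 to 624 CPM upon TBP LOF (median 399) and 134 to 301 with mouse IgG (median 194). All but 1 TBP LOF embryo, embryo 10, exceeded every mouse IgG embryo. Zp2 took 25.01 to 43.5 CPM (median 28.5) against 5.01 to 28.8 (median 13.4), with 4 TBP LOF embryos above all mouse IgG embryos. On TMM-scaled counts the Zp2 groups did not overlap, and the share of all features without overlap was not counted on this scale either. Oosp1 took 1352 to 2716 CPM (median 1673) against 482 to 1967 (median 1002). Zp3 took 6.39 to 37.2 (median 19.1) against 29.4 to 78.4 (median 41.2).

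On both scales 8 of the 10 genes had estimates above the median of all genes, and the same pair, Zp3 and Zar1l, lay below it. Relative to that median, Zp3 stood at −1.13 with either scaling, and Zar1l at −1.05 with ERCC and −1.22 with TMM scaling. Both scalings were applied to the same counts, and subtracting the median removes most of the shift between them. The agreement of the scales is therefore largely built in and is not a second piece of evidence. The other 8 genes stood between 0.53 (Oas1d) and 1.39 (Bmp15) above the median gene with ERCC scaling. The libraries were primed on the poly(A) tail of RNA present at lysis. Slower loss of inherited RNA, new synthesis and a change of tail length cannot be told apart in them. Each holds a whole embryo, and fewer molecules in both blastomeres or in 1 of them cannot be told apart either.

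**Figure D3:**
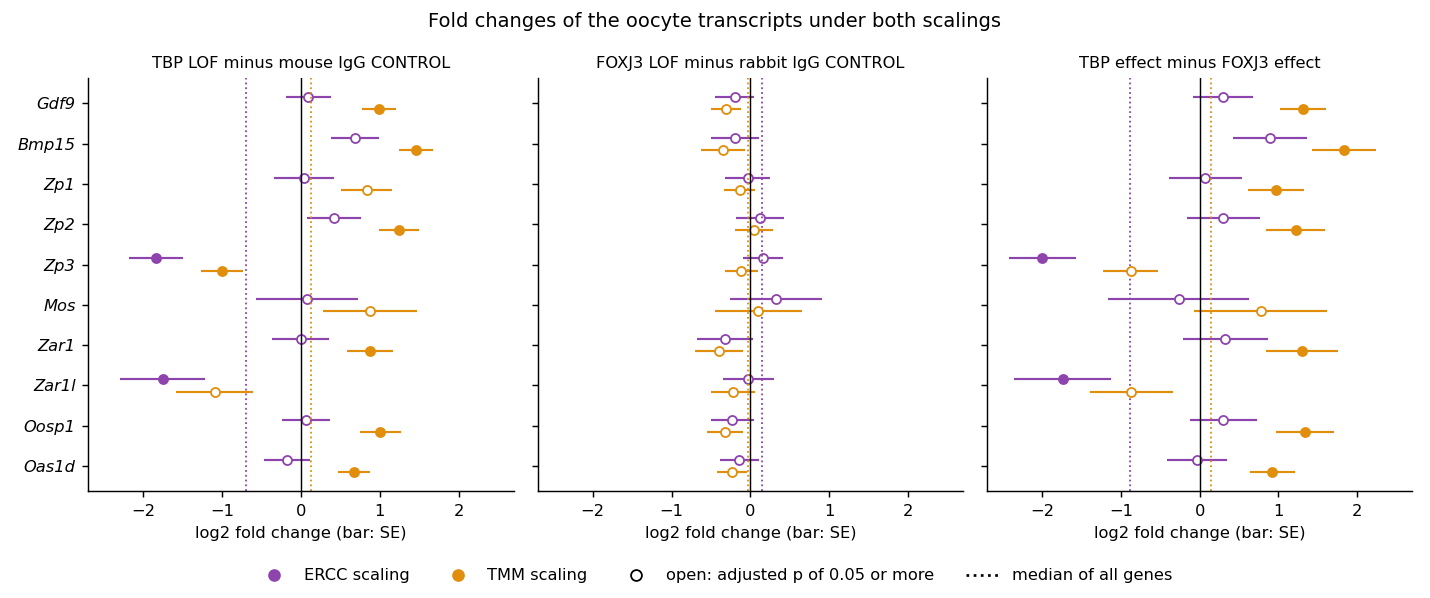
Log2 fold changes with SE of the 10 genes upon TBP LOF (left), upon FOXJ3 LOF (middle) and for the difference of the 2 effects (right), with ERCC scaling (purple) and TMM scaling (orange). Filled points passed an adjusted p of 0.05 and dotted lines mark the median of all genes. On the left, 2 genes are filled with ERCC scaling and 7 with TMM scaling, and the 2 medians stand at −0.70 and 0.13.

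FOXJ3 LOF served as a second depletion by the same method. None of the 10 genes passed the test in either direction with TMM scaling and batch as a covariate, and 0 had an unadjusted p under 0.05. By the same rule 0.0102% of all features passed, 2 of 19517. DESeq2 also called 0 of the 10. The estimates ran from −0.40 (Zar1) to 0.10 (Mos), 8 of 10 were negative, and their median was −0.23 against −0.03 over all genes, of which 47.2% had a positive estimate. With ERCC scaling they ran from −0.32 to 0.32, again with 0 called and 0.0102% of all features passing, and 7 of 10 estimates were negative. The median of the 10 was −0.09 on this scale, against 0.15 over all genes, of which 64.6% had a positive estimate.

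For Zp3, CPM ran from 14.8 over 47.3 to 77.5 upon FOXJ3 LOF and from 13.9 over 44.9 to 119 with rabbit IgG, with an estimate of −0.12 (SE 0.21). For Zar1l they ran from 3.01 over 10.99 to 18.9 and from 5.56 over 10.5 to 28.6, with an estimate of −0.22 (SE 0.27). Both genes thus overlapped between FOXJ3 LOF and its CONTROL. The 95% intervals of the TMM estimates reached at most 0.52 upwards in 9 of the 10 genes, and 1.197 in Mos.

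The estimates were also taken within each library batch. For Bmp15 the estimate was −0.79 (SE 0.39) in batch 1 and 0.15 (SE 0.25) in batch 2. In batch 1 the rabbit IgG embryos ranged from 101 to 1045 CPM of Bmp15 and in batch 2 from 258 to 732. For Gdf9 it was −0.37 (SE 0.29) and −0.27 (SE 0.21), and for Zp3 −0.20 (SE 0.29) and −0.02 (SE 0.28). None of the 10 genes passed in either batch alone, where 0 of all 20709 features passed in batch 1 and 1 of 18902 in batch 2.

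**Figure D4:**
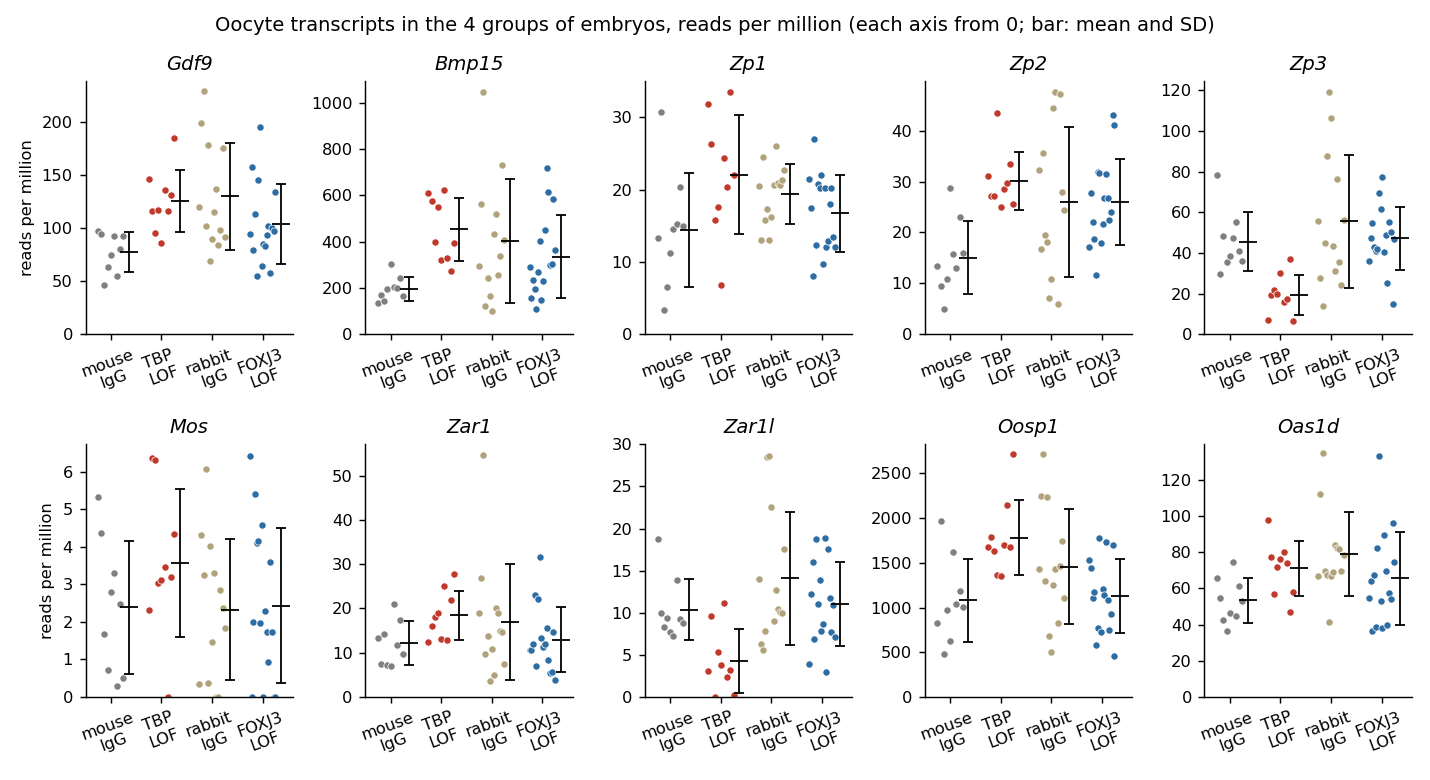
CPM of each gene in all 47 embryos of the 4 groups, 1 panel per gene, linear axes from 0. Points are embryos and black marks are means with SD. Zp3 and Zar1l sit low in the TBP LOF embryos (means 19.4 and 4.30), and the FOXJ3 LOF embryos overlap their rabbit IgG CONTROL in all 10 panels.

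The difference between the 2 effects was tested as an interaction over all embryos. With ERCC scaling Zp3 (−1.995, SE 0.42, edgeR adjusted p = 1.43e-04) and Zar1l (−1.74, SE 0.62, edgeR adjusted p = 0.0251) were lower upon TBP LOF relative to the effect of FOXJ3 LOF, and 0 genes of the 10 passed upwards. Of all features 28% passed downwards and 0.911% upwards. With TMM scaling 7 of the 10 passed upwards, led by Bmp15 (1.83, SE 0.40) and Oosp1 (1.34, SE 0.37), and 0 downwards, against 10.6% and 10.9% of all features. The 7 were the 6 that rose upon TBP LOF on this scale and Zp1 (0.97, SE 0.36). Zp3 missed the threshold there (−0.88, SE 0.34, edgeR adjusted p = 0.0588).

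Single embryos of a group differed widely, and the genes varied together in part. After the mean of each group and batch had been removed from log2(CPM + 1), 24 of the 45 pairs were positively correlated. Leaving Mos aside for its few reads, and grouping the others after the test results of Zp3 and Zar1l had been seen, the 7 remaining genes were positively correlated in all 21 pairs (Spearman's rho 0.11 to 0.57 over 47 embryos, median 0.40). Gdf9 and Oosp1 made the closest pair (0.57). Zp3 and Zar1l were negatively correlated with these 7 in all 14 pairs (−0.47 to −0.0017) and positively with each other (0.31). Mos was negatively correlated with 5 of the 7 and with Zp3 and Zar1l. All values come from the same libraries, and shares of one library are not independent of each other. Correlations of the 10 genes with library depth lay between −0.22 and 0.32, with the ERCC share between −0.25 and 0.26, with the mitochondrial share between −0.22 and 0.13, and with the level of mCherry-Trim21 between −0.33 and 0.23. They were widest with the number of genes detected, from −0.27 to 0.47 (Zp1).

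**Figure D5:**
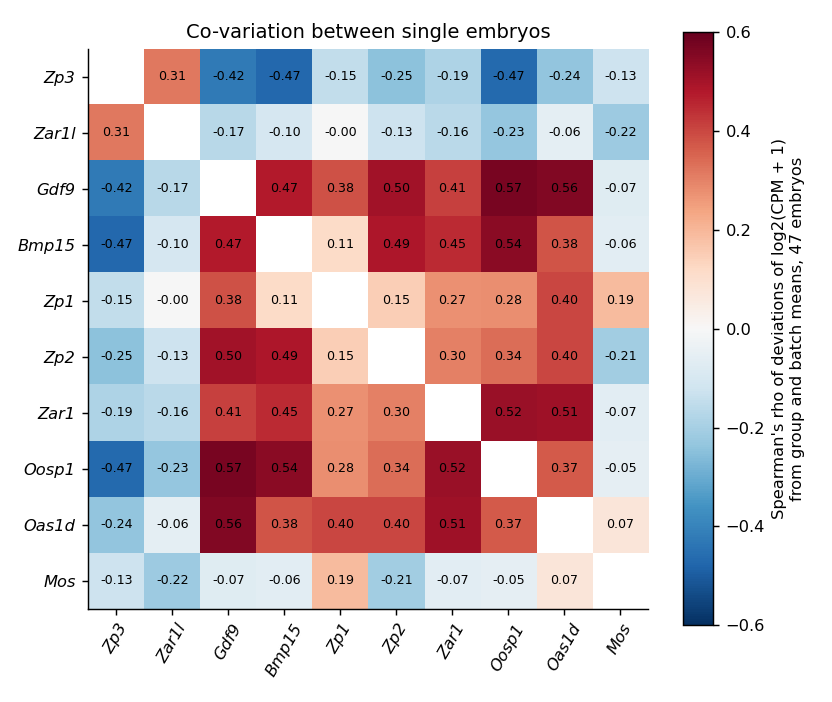
Spearman's rho between the deviations of log2(CPM + 1) from group and batch means over 47 embryos, for each pair of the 10 genes, from blue (negative) to red (positive). Zp3 and Zar1l, placed first, are positive with each other (0.31) and negative with the 7 genes that follow, which are positive among themselves.

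The genes whose deviations were most like those of a member were looked up among 9273 genes with at least 10 reads on average. Oosp1 was closest to Tcl1b3, Tcl1b1 and Tcl1b5, neighbouring genes of the Tcl1 family (rho 0.85, 0.85 and 0.84). Bmp15 was closest to Zbed3 (0.82), a gene of the subcortical maternal complex, and Zp2 to Marf1 (0.66), a regulator of oocyte RNA. For Gdf9 the closest gene was Bscl2 (0.78) and for Oas1d D6Ertd527e (0.74). The genes closest to Zp3 were Wdr45b, Tmem251 and the proteasome subunit gene Psmb2 (rho 0.77 each), and the gene closest to Zar1l was Kalrn (0.65). Zp1 was closest to Tmem151a (0.57) and Zar1 to Ap2s1 (0.66), whereas Mos had too few reads to be compared.

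Other oocyte messages were counted in the same way, next to 29.7% of all features lower and 1.34% higher with ERCC scaling, and 12.7% and 12.9% with TMM scaling. Of 25 further oocyte genes tested, 2 fell with ERCC scaling and 1 rose: the receptor gene Gpr3, which keeps the oocyte in meiotic arrest (−2.37, SE 0.32), the germ-cell helicase gene Ddx4 (−1.62, SE 0.36), and Rfpl4 (0.96, SE 0.36). With TMM scaling 14 rose, led by Bcl2l10 (1.64, SE 0.29) and Rfpl4 (1.60, SE 0.31), and Gpr3 and Ddx4 fell. Their median was 0.05 with ERCC and 0.92 with TMM scaling, next to −0.70 and 0.13 over all genes. Of the 8 genes of the subcortical maternal complex, which is stored as protein in the egg cortex, 0 fell and 1 rose with ERCC scaling (Zbed3, 0.87, SE 0.33), and 5 rose with TMM scaling, among them Zbed3 (1.62, SE 0.25) and Nlrp4f (1.18, SE 0.27). Upon FOXJ3 LOF 0 genes of these lists passed by edgeR, with 7 of 26 oocyte genes and 1 of 8 complex genes at an unadjusted p under 0.05, as were 1112 of all 19517 features.

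Of 25 genes for decay of maternal mRNA, 8 fell and 0 rose with ERCC scaling, where 29.7% of all features fell and 1.34% rose, so the count that fell was near that of features at large. With TMM scaling 2 fell and 10 rose, next to 12.7% and 12.9% of all features. The transcription factor gene Tead4, known to act in the later wave, fell by 3.28 on the log2 scale with ERCC scaling (SE 0.53). Its mean CPM, which is not scaled to ERCC reads, was 14.2 with mouse IgG and 2.31 upon TBP LOF. Ythdf2, a reader of methylated RNA that promotes decay, fell by 1.86 with ERCC scaling (SE 0.32). Both also fell with TMM scaling (−2.17 and −0.99). Of the factors already in the egg, Btg4 (1.49, SE 0.27) and Cnot6l (1.27, SE 0.24) were higher with TMM scaling. Upon FOXJ3 LOF 0 of the 25 passed by edgeR, and 0 had an unadjusted p under 0.05.

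The lists of other cell types and stages were tested with ERCC scaling, where 29.7% of all features fell and 1.34% rose. Of 10 genes of the 2-cell stage 2 rose upon TBP LOF, Tcstv3 (1.77, SE 0.34) and Usp17lc (1.38, SE 0.40), and 0 fell. Of 6 cumulus and granulosa genes tested 2 fell, Amhr2 (−1.18, SE 0.35) and Tnfaip6 (−2.46, SE 0.75), a share near that of all features. Of 2 sperm genes tested 0 passed, and of 5 genes of blastocyst lineages Fgf4 fell (−1.90, SE 0.38). With TMM scaling, where 12.9% of all features were higher and 12.7% lower, the counts were 5 higher and 0 lower of the 2-cell genes, 1 higher (Foxl2, 2.77, SE 1.01) and 0 lower of the cumulus and granulosa genes, 0 of the sperm genes, and Fgf4 lower (−1.08, SE 0.32). Upon FOXJ3 LOF 0 genes of these 4 lists passed by edgeR, with 2 of the 2-cell and 1 of the blastocyst genes at an unadjusted p under 0.05. The level of mCherry-Trim21 had medians of 1456 CPM upon TBP LOF and 793 with mouse IgG, and Zp3 and Zar1l passed the test with this level as a covariate too.

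The loci are as follows in GRCm38 with GENCODE M21. Gdf9 (ENSMUSG00000018238.6) lies at chr11:53431023-53437904 on the plus strand, 192 bases from the divergent gene Uqcrq, whose estimate was −0.51 (SE 0.30) upon TBP LOF with ERCC scaling. Zp3 (ENSMUSG00000004948.12) lies at chr5:135980099-135988624 and Oas1d at chr5:120914536-120921652, both on the plus strand. On the minus strand are Mos at chr4:3870657-3872105, Zar1 at chr5:72576806-72581254, Zar1l (ENSMUSG00000056586.8) at chr5:150507055-150518164, Zp2 at chr7:120126772-120145291, Zp1 at chr19:10914287-10920632, Oosp1 at chr19:11667460-11691150 and Bmp15 at chrX:6314107-6320721. Gm5868 lies 384 bases upstream of Zar1 on the same strand (0.63, SE 0.88).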

How the data were processed

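Single late 2-cell embryos were profiled with Smart-seq+5', an oligo(dT)-primed protocol, so that transcripts without a poly(A) tail may go uncounted. Per the labels and Methods, the authors mapped the reads of 5′ ends with STAR (2.7.11a, submitters' processing notes) to GRCm38 plus the mCherry-Trim21 construct and counted them with TEcount. The values the authors deposited are counts per gene and ERCC transcript and estimated counts per TE family, with no normalization. All were whole numbers. How multi-mapping reads and strand were handled is a point not given in the sources used here. The TElocal tables held the same gene counts for the TBP experiment (0 differing values).

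Embryos had at least 500000 counted reads, at least 1000 genes, at most 10% mitochondrial and 15% ERCC reads: 47 of 49 were kept, 1 mouse IgG and 1 FOXJ3 LOF embryo being left out. In addition, 42 TE subfamily rows were added to their 6 families (1343 families). The two-sided quasi-likelihood fit in edgeR 4.0.16 covered each feature with a read in at least 25% of the embryos (TBP 19356, FOXJ3 19517, interaction 19657). TBP embryos and the interaction were scaled by the median of ratios over 42 and 41 ERCC transcripts, FOXJ3 embryos by TMM with batch. The authors used DESeq2. Standard errors were derived from the F statistic. p-values were adjusted over genes and TE families together (threshold 0.05), with DESeq2 1.42.0 and other scalings, filters and samples as alternatives. Where nothing states that embryos are from separate females, p-values measure the spread between embryos. Since reads carry no molecular identifiers, they are not independent molecules. No embryo pair of a group agreed within sampling noise. The test was checked on simulated data.

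The 10 genes and the other gene lists were chosen with earlier results of these data known. From each further list, the 2 genes with the smallest adjusted p per direction upon TBP LOF were named, and for each member with at least 10 reads on average the 3 genes of highest Spearman's rho were sought, of which the text gives the first or all 3. Symbols came from GENCODE M21 (54723 identifiers matched), promoters from RefSeq. Embryo numbers were not taken as pairs, since the labels do not tie a number to a shared litter or day. Deviations of same-numbered TBP LOF and mouse IgG embryos correlated over 0.1 in 1 of 7 pairs (median 0.057). In differently numbered pairs this held in 11 of 74 (median −0.0044). In the FOXJ3 experiment it held in 3 of 12 (median 0.017) and in 20 of 93 (median 0.0052). So few pairs do not show that pairing is absent. R 4.3.3, Python 3.11.15, numpy, pandas, scipy and matplotlib were used.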

Additional observations from a re-analysis of the deposited data

Results flagged for a closer look

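Among 44 groups of 9 embryos searched for an extreme value, 4 held an embryo far from its neighbours. The rule flags about 1 group in 20 where values are independent and normal, which was not tested. The groups hold the same embryos on both scales and as sums, so they are not independent and the rate is a rough guide. Zar1 stood at 57.2 ERCC-scaled counts in TBP LOF embryo 8, next to 33.6 in the second highest embryo, and at 55.5 in mouse IgG embryo 6, next to 31.2. Oas1d stood at 196 in the same mouse IgG embryo 6, next to 138. Zp2 stood at 43.5 CPM in TBP LOF embryo 6, next to 33.5. These embryos passed every quality threshold and were kept.

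The effects of the 2 depletions differed by the interaction test for Zp3 (−1.995 on the log2 scale, ERCC scaling, edgeR adjusted p = 1.43e-04) and Zar1l (−1.74, edgeR adjusted p = 0.0251). Both groups of embryos had their own IgG CONTROL, and the 2 experiments differed in antibody, species of IgG and library batches, which cannot be told apart from the target.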

How the results depend on the processing

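Upon TBP LOF, Zp3 was past the threshold under all 10 alternatives (−1.91 to −0.995) and Zar1l under 8 of 10, missing it with TMM and with DESeq2 size factors over genes and TEs. Of the 10, the fit on TElocal gene counts repeats the main fit by construction, since the counts are the same. The number of the 10 genes lower was 1 with either of these scalings, and the number higher was 6 with TMM and 7 with DESeq2 size factors, next to 2451 lower and 2488 higher of all 19356 features with TMM, and 2444 and 2601 with DESeq2 size factors. It was 1 (Bmp15) with filterByExpr, with all 19 embryos, and with embryo number as a replicate block (0.74). Sign changes were seen for Zar1 (0.88 with TMM, 0.91 with DESeq2 size factors, 0.011 with total ERCC reads, 0.10 with all 19 embryos, 0.079 with the replicate block), Oas1d (0.67 and 0.70 with the first 2 scalings) and Mos (−0.022 with the replicate block). The ratio of mean levels by CPM was 1.62 for Gdf9, 1.65 for Oosp1 and 1.33 for Oas1d. Leaving out each embryo in turn gave 2 lower throughout and 0 to 1 higher, with Gdf9 from −0.029 to 0.19, Mos from −0.12 to 0.26, Oosp1 from −0.021 to 0.22, Zar1 from −0.19 to 0.19 and Zp1 from −0.072 to 0.25. With TMM scaling kept, it gave 5 to 7 higher and 1 to 2 lower, DESeq2 (with its own size factors), no filter, filterByExpr and all 19 embryos gave 7 higher (Zp1 added), and the replicate block left Zar1 (0.79) and Oas1d (0.55) short of the threshold. Of all features, in the same order, 2847 of 19356, 3089 of 29139, 2148 of 8124, 2719 of 19465 and, with the replicate block, 1806 of 19356 were higher. These alternatives with TMM scaling kept were chosen after seeing the data. With ERCC scaling, 4717 of all features were lower and 284 higher with the replicate block, 4269 and 123 of 8124 with filterByExpr, and 6355 and 463 of 29139 with no filter, against 5758 and 259. Numbers were shared by 7 TBP LOF and mouse IgG embryos, whose deviations correlated by −0.03 to 0.11, and by 12 of the FOXJ3 experiment (−0.21 to 0.27).

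Upon FOXJ3 LOF, 0 of the 10 genes passed under any alternative, the replicate block included, while signs changed for Bmp15 (0.15), Zp2 (−0.0799), Mos (−0.0799) and Zar1l (0.016) in batch 2 alone, Zp1 (0.057) in batch 1 alone, Zp3 with ERCC scaling (0.16) and Mos with mCherry-Trim21 as a covariate (−0.36). Leaving out single embryos moved Bmp15 from −0.44 to 0.032, Mos from −0.066 to 0.24 and Zp2 from −0.052 to 0.18. For the difference between the effects, TMM scaling gave 0 lower and 7 higher, with Mos at 0.77 and Oas1d at 0.92, and all 49 embryos put Oas1d at 0.025. Leaving out single TBP or mouse IgG embryos gave 2 lower and 0 higher throughout, with Oas1d from −0.16 to 0.094 and Zp1 from −0.061 to 0.28. Where no construction is named, the cause was not tested. Mos was not tested with filterByExpr, since its reads were too few.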
